A study of Mus musculus with 4 samples.

Results

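The region of mouse chromosome 5 that holds Tbx3 and Tbx5 was examined for binding of TBX5 in the forelimb bud, both around the gene that encodes TBX5 itself and around its neighbour. Peaks were taken into the set when their summit lay from 119.6 to 120.9 Mb on chromosome 5, a window of 1.3 Mb, whatever their strength. Of the 11224 peaks in the deposited list, 24 met this rule, out of 647 on chromosome 5. Chromatin came from forelimbs of wild-type embryos of the outbred ICR mouse stock at embryonic day 10.5, with no allele or treatment added. It was precipitated with a polyclonal antibody against human and mouse TBX5 in 2 ChIP libraries, and 2 libraries of input chromatin were sequenced beside them. Whole forelimbs were used, so a peak does not tell which cells of the bud carried the binding, and how many embryos went into each sample is not given in the sources used here.

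TBX5 is a transcription factor of the T-box family, whose members bind DNA through the T-box domain. It is made in the forelimb bud and the heart, is needed for the forelimb to form, and is mutated in Holt-Oram syndrome, in which the upper limbs and the heart are malformed. Tbx3 encodes a related T-box factor, known mainly as a repressor, that is expressed along the anterior and posterior margins of the limb bud and is mutated in ulnar-mammary syndrome. The genes are neighbours on the chromosome. In the order of protein-coding genes given by RefSeq for GRCm38.p6, Med13l, a subunit gene of the Mediator complex, comes before Tbx3, and Tbx5 is followed by Rbm19, an RNA-binding protein of ribosome assembly, and by Lhx5, a LIM-homeobox factor.

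Positions below are those of the deposited list, counted from 1, and they are read here as build mm9, in which Tbx3 lies near 120.12 Mb and Tbx5 near 120.28 to 120.34 Mb. These gene positions are rounded to 10 kb, so a peak within 10 kb of one of them cannot be placed inside or outside the gene, and no exon, intron or UTR was assigned. The span of Tbx5 also depends on the gene model, so a peak further from its rounded limits may lie inside it. The labels name mm10 instead. The positions do not allow that label. On chromosome 7, the list has summits past the end of that chromosome in GRCm38, the assembly of mm10. On 5 chromosomes, 72 summits, 8 of them on chromosome 5, were further along than any protein-coding gene that RefSeq places there in GRCm38.p6. Summits can lie past the last gene in any build and no such count was made for mm9. This count alone thus does not decide between the builds, but a summit cannot lie past a chromosome's end. The GRCm38.p6 reading is kept below only to show what the labelled build would give. Read as GRCm38.p6, the 24 peaks keep their positions, signals and scores, but their places relative to the genes change throughout. Of the 24, 1 would then lie before Tbx3, 0 from Tbx3 to Tbx5, 4 in Tbx5 and 19 beyond it. On the mm9 reading these counts are 12, 6, 0 and 6. Every statement below that sets a peak before, at, between or beyond the genes uses the mm9 reading, unless GRCm38.p6 is named.

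The strongest peak of the window lay, on the mm9 reading, at the position of Tbx3. Its interval ran from 120120792 to 120120937 with the summit at 120120859, which is within the rounding of the gene's place. Its signal value, the strength that the authors' peak caller gave the peak on a scale that is not stated, was 60.2, or 2.22 times the median of the whole list. Its irreproducible discovery rate (IDR) score, which grades how well a peak recurs between the replicates, was 1000, the highest the list contains and equal to an IDR of 0.00391 or less. Among all 11224 peaks it ranked 1172 by signal. Its interval was 146 bp long, where the most frequent width, shared by 84.3% of the list and 22 of the 24 peaks here, is 416 bp.

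Below the Tbx3 position, 12 peaks were listed over 520 kb, in a far and a near group and 1 peak apart. The near group started 60.7 kb before Tbx3. Its summit at 120059280 had a signal of 44.6, and the summit at 120062692 had a signal of 54.7, the second strongest of the window. Both had a score of 1000, and each was listed with a weaker companion close behind it. A single peak followed at 120078750 with a signal of 33.4 and a score of 1000. The last summits before the Tbx3 peak, also within 10 kb of the rounded position, at 120112291 and 120112524, were the least reproducible of the window, with signals of 14.4 and 9.98 and scores of 620 and 550. The second of them was also the weakest peak of the window and the only 1 with a q-value above 0.05 (0.0957), a class that makes up 6.07% of the list.

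The far group lay between 119800642 and 119875029 and held 4 peaks. The strongest of them, with its summit at 119830406, had a signal of 41.5 and a score of 1000, and its interval of 150 bp was the only other one in the window that was not 416 bp wide. Widths below 200 bp, found in these 2 peaks, occur in 8.28% of the list. The summit at 119875029 had a signal of 32.8 and the summit at 119800642 a signal of 26.8, each with a score of 1000. The summit at 119861196 had a signal of 21.8 and a score of 636, so this group mixed peaks that recurred well with 1 that passed the list's limit by less. A lone peak at 119629008 (signal 19.5, score 719) was the first of the window.

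**Figure D1:**
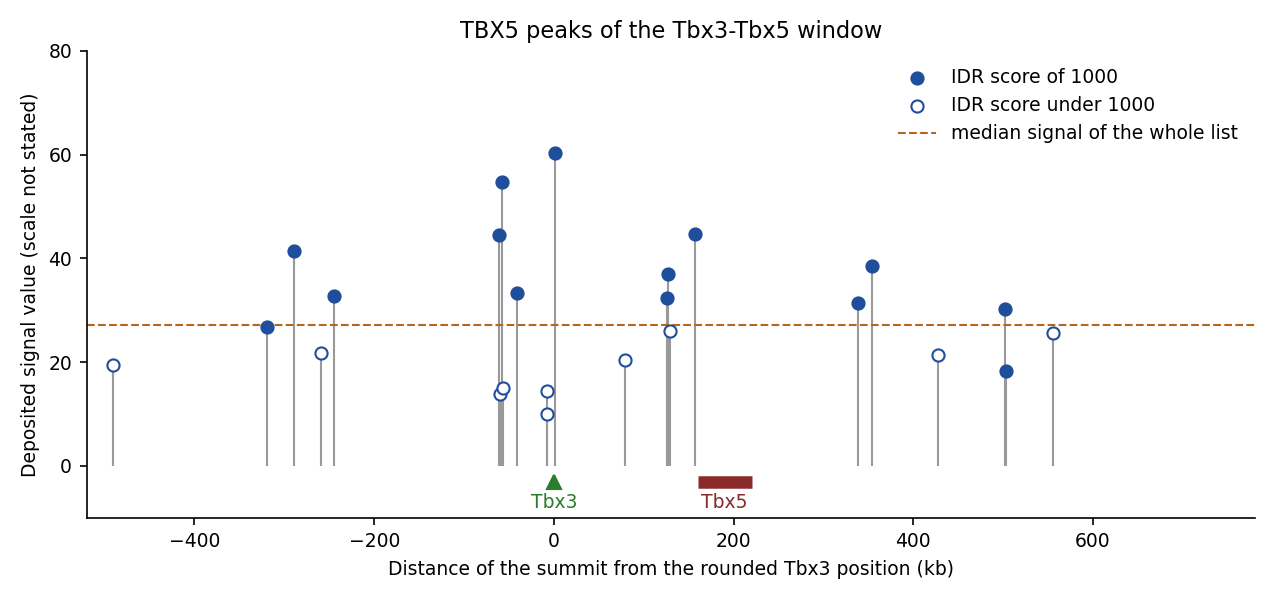
Signal value of the 24 peaks by distance of the summit from the rounded Tbx3 position in kb; filled points have an IDR score of 1000, open points a lower score, the dashed line is the median signal of all 11224 peaks, the triangle marks the rounded place of Tbx3 and the bar that of Tbx5. The strongest peak, at 60.2, sits at Tbx3, and no point sits above the bar for Tbx5.

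No summit was listed inside the rounded interval of Tbx5, from 120.28 to 120.34 Mb. The nearest lay just before it, at 120277534 (interval 120277326 to 120277741), 2.47 kb below the rounded start, and had a signal of 44.6 and a score of 1000. It was the third strongest peak of the window. The gene's start is known here only as a rounded position, so this peak may lie before the gene, at its start or inside it. With the limits moved 10 kb down, the count inside Tbx5 was 1. Beyond it, the next summit was 181 kb away, at 120458486. In the list, 29.9% of the spaces between neighbouring summits were longer than this. A peak list also does not show binding that fell under the authors' threshold. Under the labelled build, GRCm38.p6, 4 summits with signals from 21.8 to 41.5 would fall inside Tbx5 and 0 inside Tbx3. The positions do not allow that build, so these counts do not alter the mm9 placement. These 4 summits are the far group, which spans 74.4 kb, so RefSeq's Tbx5 is longer than the 60 kb of the rounded mm9 interval. The limits of Tbx5 thus depend on the gene model as well as on rounding. Peaks further before its rounded start may also lie inside it.

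Between Tbx3 and Tbx5, a further 4 peaks came before the one at the Tbx5 edge. Those at 120245561 and 120246611 were 1050 bp apart and had signals of 32.3 and 37.1, both with a score of 1000. The summit at 120249446, 2835 bp further along, was weaker and less reproducible, with a signal of 26.0 and a score of 702. Together with the edge peak, this placed 4 of the 6 peaks from Tbx3 to Tbx5 in the last 34.4 kb before the rounded start of Tbx5. The remaining ones were the strongest peak, at Tbx3, and a peak at 120198813 with a signal of 20.4 and a score of 722.

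Beyond Tbx5, 6 peaks were spread over 560 kb. The strongest, at 120474485, had a signal of 38.6, and its neighbour at 120458486 had a signal of 31.4, both with a score of 1000. A pair of summits at 120622386 and 120622615 also had scores of 1000, with signals of 30.3 and 18.3. The peaks at 120547198 and 120675497 had signals of 21.4 and 25.6 and scores of 690 and 876. None of these 6 reached the signal of the peak at the Tbx5 edge. RefSeq's gene order places Rbm19 and Lhx5 on this side, but no peak was assigned to them.

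By density on the mm9 reading, the segment from Tbx3 to Tbx5 held 37.5 peaks per Mb, the segment before Tbx3 23.1, the rounded Tbx5 interval 0 and the segment beyond Tbx5 10.7. The Tbx5 interval was only 60 kb long and held 1 peak with the limits moved 10 kb down, so its density of 0 tells little. On the GRCm38.p6 reading, which the positions do not allow, the segment from Tbx3 to Tbx5 would hold 0 peaks and Tbx5 4. At an IDR of 0.01 or below, the segment before Tbx3 held 7 peaks in place of 12. With summits within 1000 bp joined, the segment before Tbx3 held 9 peaks, that from Tbx3 to Tbx5 6 and that beyond Tbx5 5. The median signal was 34.7 over the 6 peaks from Tbx3 to Tbx5, 24.3 over the 12 before Tbx3 and 27.96 over the 6 beyond Tbx5. These medians count weaker companion summits as peaks of their own. The ranges overlapped widely, at 20.4 to 60.2, 9.98 to 54.7 and 18.3 to 38.6, so the segments are not separated by signal. The list gives 1 value per peak and none for a single replicate, so no error over replicates can be attached to these values and no test between segments was made.

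The IDR scores give the measure of replicate agreement that the list contains. A score of 1000 was held by 14 of the 24 peaks (58.3%, exact 95% Clopper-Pearson interval 36.6 to 77.9%, which treats peaks as independent), against 45.4% of the whole list. An IDR of 0.01 or below was reached by 16 (66.7%, exact interval 44.7 to 84.4%), against 60% of the list. Both intervals include the share of the whole list. The smallest q-value of the list, 0.000113, was held by 10 peaks of the window (41.7%, exact interval 22.1 to 63.4%), against 38.6% of the list. The 14 peaks with a score of 1000 had signals from 18.3 to 60.2 with a median of 35.2, and the other 10 had signals from 9.98 to 26.0 with a median of 19.9. The classes overlapped between 18.3 and 26.0, where the companion summit at 120622615 had a full score despite its signal of 18.3.

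**Figure D2:**
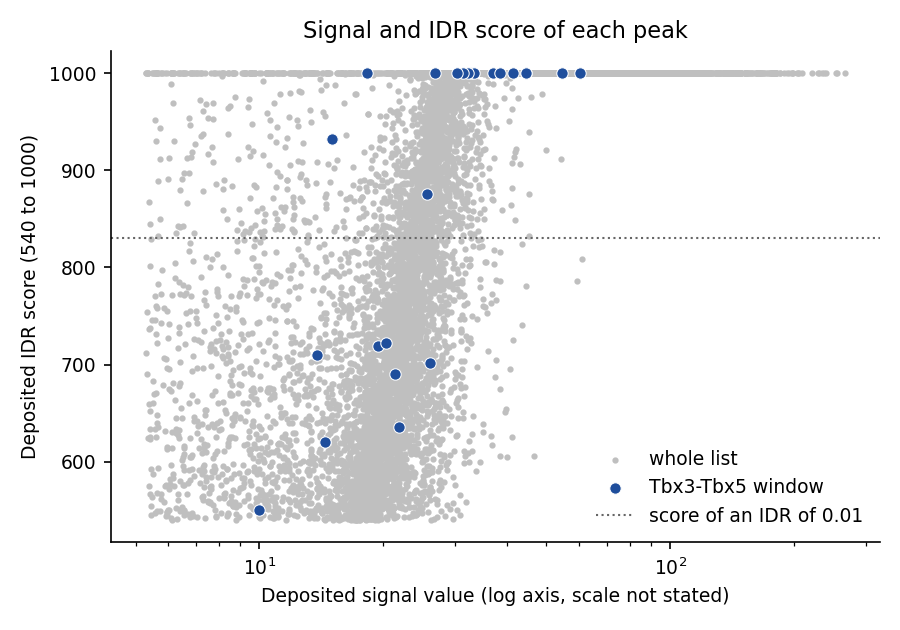
Deposited signal value (log axis) against the deposited IDR score for all 11224 peaks (grey) and the 24 peaks of the Tbx3-Tbx5 window (blue); the dotted line is the score of an IDR of 0.01. The peaks of the window lie inside the spread of the list, 14 of them at the highest score and 8 under the dotted line.

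The window had many peaks but none in the strongest 10% of the list, a limit that its strongest peak missed narrowly. It held 18.5 peaks per Mb, against 4.22 on the rest of chromosome 5 (a ratio of 4.38) and 4.42 on all other chromosomes (a ratio of 4.18). When all chromosomes were divided into 1939 stretches of 1.3 Mb, of which this window was 1, the median stretch held 4 peaks and the middle 50% held 1 to 8, while 38 stretches (1.96%) held 24 or more. On chromosome 5, 2 of 114 stretches did. The stretch just before the window held 14 peaks, with a median signal of 33.95 and a highest of 74.7, and the stretch just after it held 1, with a signal of 22.0. The nearest peaks outside were 144 kb before the window and 118 kb beyond it.

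The signals themselves were those of ordinary peaks. The median in the window was 28.5 with quartiles of 20.1 and 37.4, against a median of 27.2 with quartiles of 20.3 and 39.96 in the whole list. Of the 24 peaks, 12 were above the list's median, a share equal to the 50% it gives by definition. In the strongest 10% of the list, which begins at a signal of 61.3, just above the strongest peak of the window, there were 0. The exact interval of that share, 0 to 14.2%, includes the 10% of the list. In the other 37 stretches with 24 or more peaks, the strongest peak had a signal between 65.2 and 266.0, with a median of 121.5, and in 0 of them was it weaker than the 60.2 found here. Stretches with more peaks have more chances of a strong one, and this set of stretches was picked with the values known. The median signal in these 37 stretches ranged from 22.4 to 45.1, and 19 of them had a median below that of the window.

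**Figure D3:**
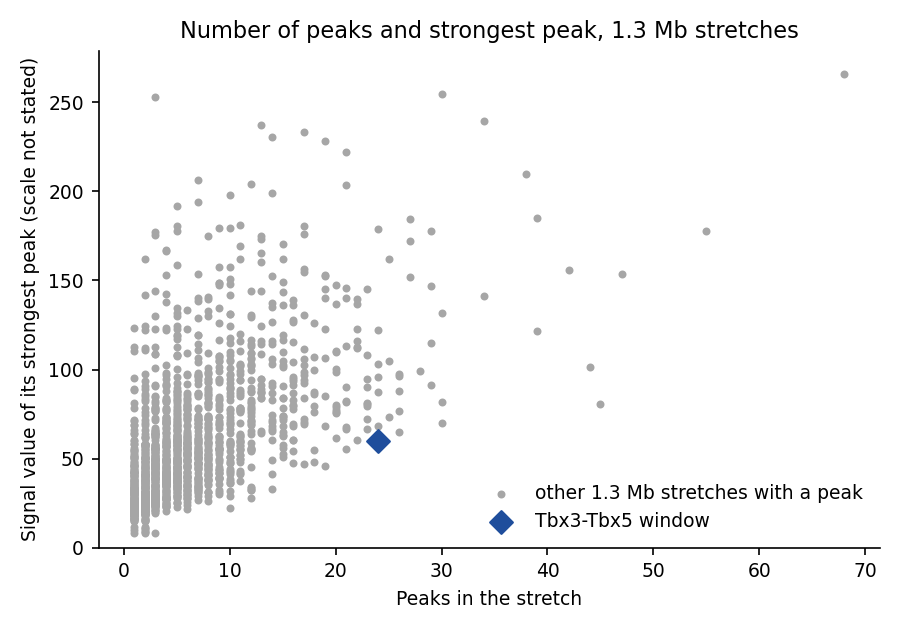
Number of peaks in each 1.3 Mb stretch that holds a peak (horizontal axis) against the signal value of its strongest peak (vertical axis); grey points are other stretches and the blue diamond is the Tbx3-Tbx5 window. The window has 24 peaks and a strongest signal of 60.2, lower than in any other stretch with 24 or more peaks.

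With summits less than 50 kb apart counted as 1 run, the 24 peaks formed 8 runs, of which 5 (62.5%) held several peaks and 3 held a single one. The whole list formed 6106 runs, of which 39.0% held several peaks. A neighbour less than 50000 bp away was listed for 21 of the 24 peaks (87.5%, exact interval 67.6 to 97.3%), against 66.8% of the list. These 21 peaks lay in the 5 runs with several peaks, where each is a neighbour of another. The exact intervals for neighbours, here and below, treat peaks as independent and are therefore too narrow. No difference from the list is read from them. The window also held more peaks per Mb than the list, and the part of that density in the shares of runs and neighbours was not tested. The largest run, of 8 peaks over 61.6 kb, ended at the Tbx3 peak, and the next, of 5 peaks over 78.7 kb, ended at the Tbx5 edge. Between neighbouring summits of the window the median distance was 28.1 kb, against 59.7 kb on chromosome 5 and 63.5 kb in the list. The 3 longest spaces, 184, 181 and 172 kb, were between the far and near groups before Tbx3, across Tbx5, and after the first peak of the window. A neighbour no more than 10000 bp away was listed for 12 of the 24 peaks (50%, exact interval 29.1 to 70.9%), against 42.7% in the list, a share inside that interval.

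Close pairs made up part of these runs. In 4 places of the window, and 1151 of the list, neighbouring summits were within 500 bp, which took in 8 of the 24 peaks (33.3%, exact interval 15.6 to 55.3%) against 20.1% of the list. The 8 peaks make up 4 pairs, so this interval is also too narrow. The distances in the window were 199, 201, 233 and 229 bp and the listed intervals overlapped by 183 to 217 bp. In the pairs before Tbx3, the companion at 120059479 (signal 13.8, score 710) had 0.31 times the signal of its neighbour and the companion at 120062893 (signal 15.1, score 932) had 0.276 times. The pair at 120112291 and the pair at 120622386 were more even, at 0.691 and 0.604. The median ratio over the 1151 pairs of the list was 0.444. The stronger summit came first in all 4 pairs of the window and in 988 of the 1151 pairs of the list. The shortest distance was 199 bp in both, so a weaker companion close behind is common in the list and not particular to this window. With overlapping intervals joined, the window held 20 sites in place of 24 peaks, with the strongest peak of each site giving a median signal of 31.8.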

How the data were processed

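The data were 1 deposited peak list without a header, in the 10-column narrowPeak layout, for the TBX5 ChIP group as a whole. Neither replicates nor input have columns of their own, so there is no background value per peak and read depth is unknown; libraries were single-end reads of 75 bp, per the labels. The deposited score (540 to 1000) was taken as the usual scaling of the IDR, -125 × log2(IDR), and the list's name gives the authors' limit of 0.05. The deposited signal is the authors' value of peak strength, used only to rank and describe peaks within the list. The deposited −log10 q-value is the authors' significance of each peak; the deposited p-value column holds -1, the code for a value not given. The peak caller, the aligner and their settings, which decide what is listed, are not given in the sources used here; the submitters' processing notes name mm10.

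Summits (start plus summit offset) were counted with pandas 2.3.3 and NumPy 2.4.6 under Python 3.11.15, intervals came from SciPy 1.17.1, and matplotlib 3.10.9 drew the figures. Stretches of 1.3 Mb were laid from the chromosome start and kept between the first and last summit. Counting was tested on simulated data, where 20 of 20 lists of 326 peaks were recovered. Comparisons are descriptions with exact 95% binomial intervals, which cover counting error only; peaks are not replicates. All peaks of the window were to be named singly if there were 30 or fewer. The window, genes and lists were chosen with earlier results of these data known.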

Additional observations from a re-analysis of the deposited data

How the results depend on the processing

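Of 56 alternative values, 35 stayed within 1.5 times the main count, inside the exact interval of a share or the same to 3 digits, and 21 moved. The window held 24 peaks and 16 to 24 under 7 alternatives, but 12 with only signals above the list median. The density ratio to the rest of chromosome 5, 4.38 in the full list, was 4.87 at an IDR of 0.01 or below, 4.09 with overlapping peaks joined, 4.23 with summits within 1000 bp joined, 4.59 at a q-value of 0.05 or below, 4.34 above the median signal, 4.18 against all other chromosomes, 4.96 with the window narrowed by 100 kb at each end and 3.79 with it widened. The median signal, 28.5 in the full list, was 33.1 at an IDR of 0.01 or below, 31.8 under both ways of joining, and 30.3 both at a q-value of 0.05 or below and in the narrowed window. The median score was at the ceiling of 1000 in the full list and in the alternatives, which therefore shows no stability. The share of peaks with a neighbour was 87.5% within 50000 bp, where 66.8% of the whole list had one, in place of 50% within 10000 bp.

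The segment before Tbx3 held 7 peaks, not 12, at the stricter IDR, and the Tbx5 interval held 1 with limits moved 10 kb down, in place of 0. Read as GRCm38.p6, the segments held 1, 0, 4 and 19 peaks in place of 12, 6, 0 and 6. This alternative was chosen after the data were seen and uses a build that the positions do not allow. These changes follow from fewer peaks, other limits or the other build. No paired analysis was possible because replicates have no columns of their own, which also kept them from being omitted 1 at a time. Without read depth, binding missed for lack of reads cannot be estimated.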
